A study of Mus musculus with 12 samples.

Results

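The CC chemokines described here are 10 genes (Ccl2, Ccl3, Ccl4, Ccl5, Ccl6, Ccl7, Ccl9, Ccl12, Ccl17 and Ccl22) among 11095 genes tested in mouse bone marrow-derived dendritic cells. They were chosen by name, and each was read from the probe that carries its RefSeq accession, the brightest one where a gene had more than 1. All 10 members passed the filter on dim probes; 9 were well above background on all 12 arrays, and Ccl22 passed only through the 6 h and 24 h groups, where it is higher. Lipopolysaccharide (LPS) is part of the outer membrane of Gram-negative bacteria. After LPS, 7 of the 10 members were called higher than in unstimulated cells at 1 h, 7 at 6 h and 5 at 24 h. None was called lower at any of these times. Over all genes, 4.06% were called higher at 1 h, 16.1% at 6 h and 18% at 24 h. With slide as a block, 4 of the 10 members were called at 1 h. The time courses differed: Ccl2, Ccl7 and Ccl12 were high at 1 and 6 h and not distinguishable from unstimulated cells at 24 h, Ccl3 and Ccl4 were still raised at 24 h, and Ccl5 had its highest mean level at 24 h.

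CC chemokines are small secreted proteins that bind G protein-coupled receptors on leukocytes and direct their migration. Ccl2, Ccl7 and Ccl12 are ligands of Ccr2 that attract monocytes; Ccl3, Ccl4 and Ccl5 attract monocytes and effector T cells; Ccl6 and Ccl9 are mouse ligands of Ccr1; and Ccl17 and Ccl22 are ligands of Ccr4 that attract T cells. In dendritic cells, LPS is sensed by Tlr4, and the inflammatory chemokines are textbook targets of the NF-kB and interferon pathways that it starts.

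The cells of every group came from mouse marrow depleted of B and T cells and were grown for 5 days in GM-CSF (10 ng/ml) plus IL-4 (5 ng/ml). There were 4 groups of 3 biological replicates, with donor letters A, B and C: unstimulated cells (0 h), and cells given LPS at 100 ng/ml for 1, 6 or 24 h. Cells were harvested by pipetting, and no sort is named in the labels, so that fewer cells of a type and less RNA per cell cannot be told apart. Unstimulated cells were taken at 0 h and at no later time, so time in culture and LPS cannot be told apart. The labels do not give strain, age or sex, nor whether a given letter means 1 animal throughout.

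On each of the 12 arrays a sample labelled with Cy5 was set against a pool of mouse RNA labelled with Cy3, and a level is the log2 ratio of sample to reference. On an array, 48.7 to 58.1% of probes gave a Cy5 signal well above background, no spot was saturated, and arrays of 1 group correlated across genes at r = 0.946 to 0.984. Precision is limited by how many arrays there are. Of the 4 slides, slide 1 carried all unstimulated samples plus donor A at 1 h. Slide 2 carried donor B at 1 h and at 24 h, slide 3 donor C at 1 h with donors A and B at 6 h, and slide 4 donor C at 6 h with donors A and C at 24 h. Thus 6 h and 24 h cells never shared a slide with unstimulated cells. Of 12 conventional dendritic cell markers, 10 were tested and their mean log2 ratio was 2.77 to 3.02 in unstimulated cells, 3.08 to 3.21 at 1 h, 3.20 to 3.50 at 6 h and 3.14 to 3.39 at 24 h, while Clec9a and Cd209a were above background on no array.

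Markers of other cells moved with time. The mean log2 ratio of 10 tested neutrophil markers of 14 was 2.27 to 2.68 in unstimulated cells, 1.44 to 1.78 at 1 h, 0.91 to 1.39 at 6 h and 0.87 to 1.48 at 24 h, with Elane and Retnlg above background on no array. That of 8 tested macrophage or monocyte markers of 12 was 1.65 to 1.91, 2.34 to 2.69, 2.05 to 2.10 and 1.24 to 1.49 at the same 4 times. The mean of 2 tested NK cell markers of 7 was 0.97 to 1.19 in unstimulated cells. It lay lower at 1, 6 and 24 h, at 0.19 to 0.68, 0.23 to 0.41 and 0.18 to 0.24. That of 6 tested mast cell and basophil markers of 9 was 0.43 to 0.48 in unstimulated cells. It too lay lower at these times, at 0.09 to 0.21, -0.05 to 0.06 and -0.02 to 0.31. That of 2 tested T cell markers of 7 was -1.54 to -1.45 in unstimulated cells. It lay higher at these times, at -1.41 to -0.55, -0.90 to -0.08 and -0.92 to 0.10. B cell, eosinophil and erythroid means overlapped the unstimulated range at each time. The part of these markers in the changes of the chemokines was not tested.

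**Figure D1:**
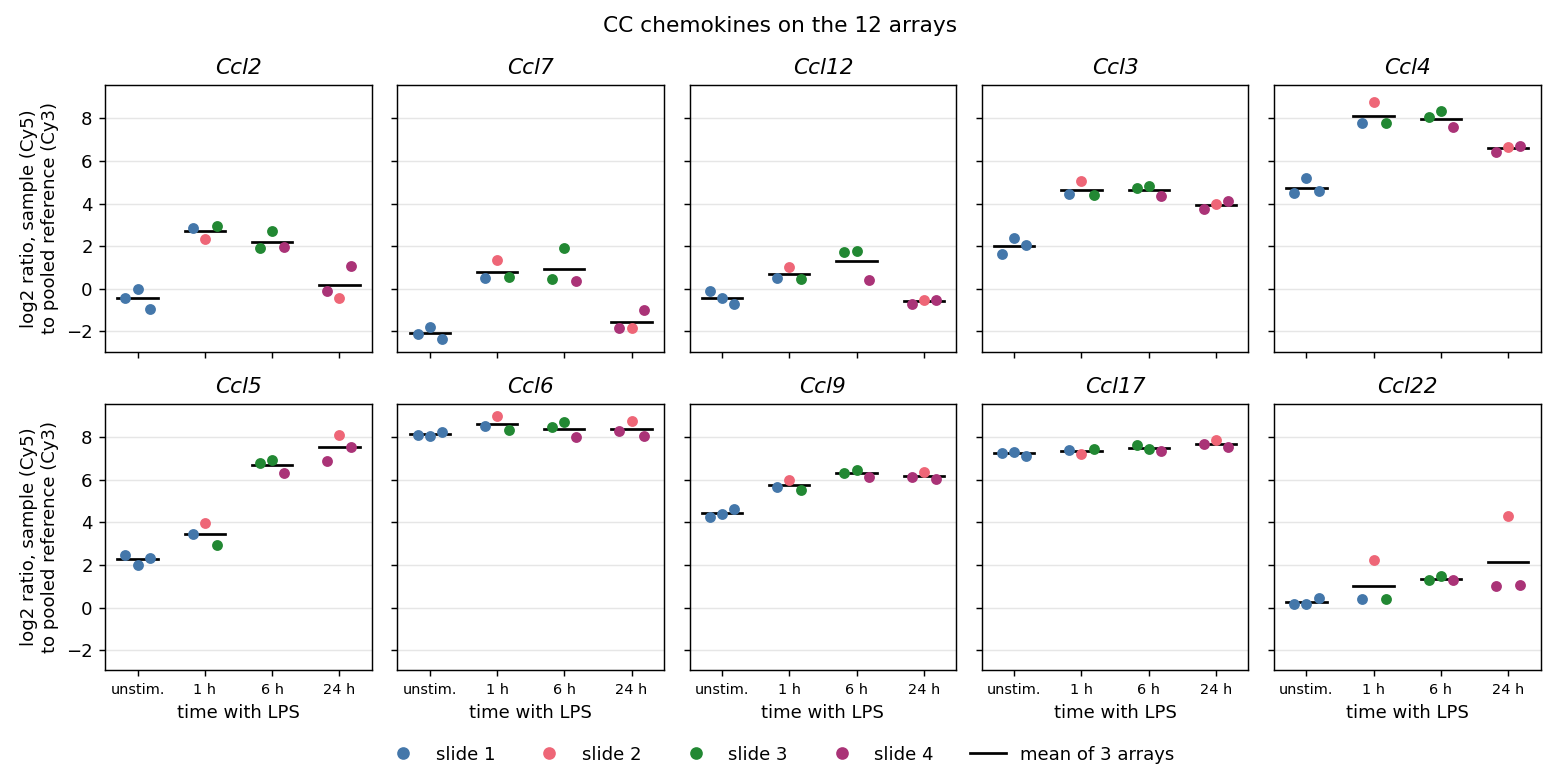
Log2 ratio of sample to pooled reference (vertical axis) for the 10 CC chemokines on each of the 12 arrays, by time with LPS (horizontal axis); points are arrays coloured by slide, and bars are means of 3 arrays. The mean of Ccl5 was higher at each later time, Ccl2, Ccl7 and Ccl12 were high at 1 and 6 h and low again at 24 h, and Ccl6 and Ccl17 lay above 7 on every array.

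The earliest comparison was 1 h of LPS against unstimulated cells. Of the 10 members, 7 were called higher and 0 lower, against 7.46% of all genes called in either direction and 4.06% called higher; the median log2 change was 1.23 over the members and 0.02 over all genes. The 7 were Ccl2, Ccl3, Ccl4, Ccl5, Ccl7, Ccl9 and Ccl12. With slide as a block 4 of the 10 were called (Ccl2, Ccl3, Ccl4 and Ccl9), where 225 of the 11095 genes were called in either direction. A gene is called at a Benjamini-Hochberg adjusted p under 0.05 over the 11095 genes.

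Against unstimulated cells, 7 of the 10 were called at 6 h, all higher, where 39.6% of all genes were called and 16.1% were called higher; the median log2 change was 2.25 over the members and -0.04 over all genes. At 24 h 5 were called, all higher (Ccl3, Ccl4, Ccl5, Ccl9 and Ccl17), where 39.4% of genes were called and 18% were called higher; the medians were 1.20 and 0.02. With slide as a block the counts were 8 at 6 h, with Ccl22 added, and 4 at 24 h (Ccl3, Ccl5, Ccl9 and Ccl22). That fit called 1949 of the 11095 genes at 6 h and 1762 at 24 h, in either direction. Nothing is read from the Ccl22 passes, as its probe passed the filter only through 6 h and 24 h.

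**Figure D2:**
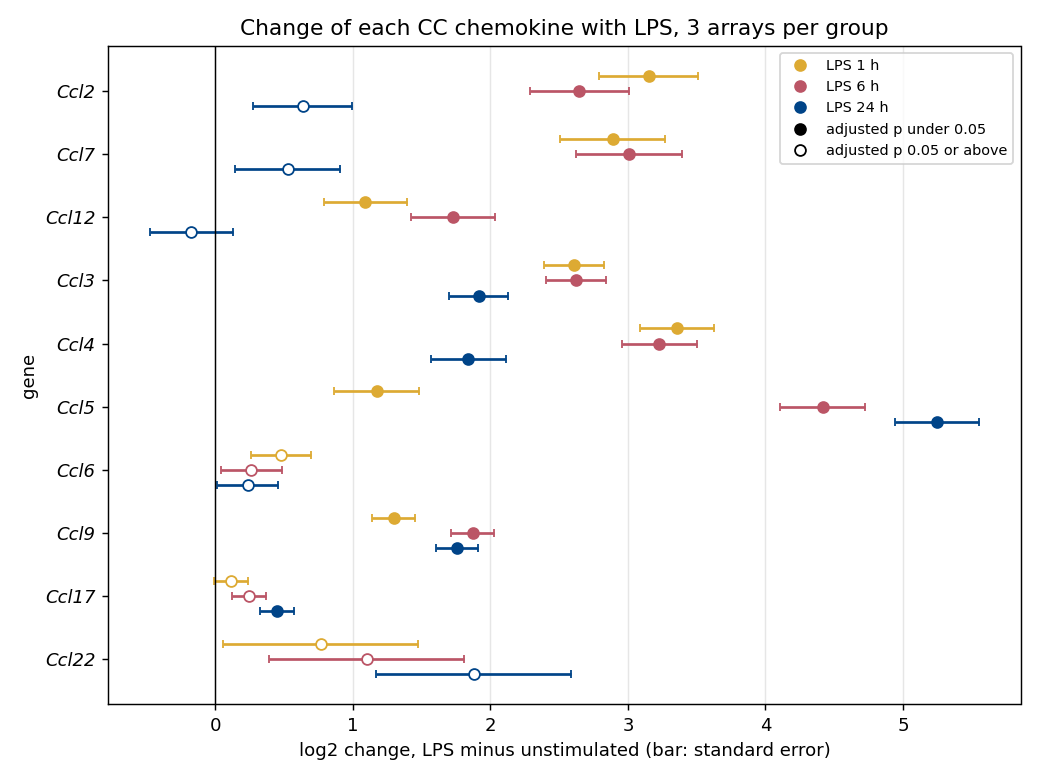
Log2 change (horizontal axis) of each CC chemokine (vertical axis) at 1, 6 and 24 h of LPS minus unstimulated cells, with standard errors, 3 arrays per group; filled points passed an adjusted p under 0.05. The change of Ccl5 was 5.25 at 24 h, and those of Ccl6 stayed under 0.5 with open points.

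Of the Ccr2 ligands, Ccl2 rose 8.88-fold at 1 h (log2 change 3.15, SE 0.36, adjusted p = 0.000155) and 6.26-fold at 6 h (2.65, adjusted p = 0.000116). Its log2 ratio was 2.83, 2.33 and 2.92 at 1 h and 1.92, 2.70 and 1.95 at 6 h, against -0.42, 0.01 and -0.95 in unstimulated cells (donors A, B and C). All LPS arrays of these 2 times lay above all unstimulated arrays. At 24 h it was -0.09, -0.44 and 1.08, which overlapped the unstimulated range, and the change of 0.63 did not pass (adjusted p = 0.189). The Ccl2 probe is printed on 10 spots of each array, and the SD over those spots was 0.02 to 0.04 log2 units. Spot error is thus small beside the spread between arrays of a group.

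Ccl7, which lies next to Ccl2 on mouse chromosome 11, had log2 ratios of 0.49, 1.35 and 0.56 at 1 h and 0.46, 1.93 and 0.38 at 6 h, against -2.11, -1.77 and -2.38 in unstimulated cells. It was 7.40-fold higher at 1 h (2.89, SE 0.38, adjusted p = 0.000504) and 8.05-fold higher at 6 h (3.01, adjusted p = 6.62e-05). With slide as a block the 1 h change was 2.58 (adjusted p = 0.0528). At 24 h its levels were -1.83, -1.84 and -1.001 and the change of 0.53 did not pass. A second Ccl7 probe gave 2.91, 3.03 and 0.53 at the 3 times.

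Ccl12, the mouse Ccr2 ligand beyond Ccl7 and Ccl11 in the same cluster, had log2 ratios of 0.53, 1.04 and 0.46 at 1 h and 1.74, 1.78 and 0.43 at 6 h, against -0.12, -0.42 and -0.71 in unstimulated cells. It rose 3.31-fold at 6 h (1.73, SE 0.30, adjusted p = 0.000669). The 1 h change of 1.09 (adjusted p = 0.0477) was not called with slide as a block (0.94, adjusted p = 0.25) nor without any 1 of the 3 unstimulated arrays. It was also lost with every local background as deposited, by median centring, from Cy5 alone, with no filter on dim probes, with the mean of all kept probes, and without slide 2, the 1 h array of donor A or B, the 6 h array of donor A or any 1 of the 24 h arrays. At 24 h Ccl12 was at -0.71, -0.53 and -0.53, and its change of -0.18 did not pass. This probe is dim: its sample signal was 27.5 to 64.5 units in unstimulated cells, 229 to 470.5 at 6 h and 35.5 to 49.5 at 24 h. The lowest 2 of these ranges lie near the offset of 50 used in background correction, so the Ccl12 fold values and its level at 24 h are uncertain.

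Between 6 h and 24 h, 5 members were called lower at 24 h and 0 higher, against 18.4% of genes called and 8.76% called lower. Ccl7 was 5.59-fold lower at 24 h than at 6 h (-2.48, SE 0.38, adjusted p = 0.00101), the 11th lowest of 11095 changes. Ccl2 was 4.04-fold lower (-2.01, adjusted p = 0.00266) and Ccl12 3.74-fold lower (-1.90, adjusted p = 0.00123). These 3 changes also passed with slide as a block, at -2.41, -1.67 and -1.59. Within slide 4, which held 2 arrays of 24 h and 1 of 6 h, the differences were -1.80 for Ccl7, -1.46 for Ccl2 and -1.04 for Ccl12. From processed signals the Ccl12 changes were larger, at 2.05 at 1 h and 2.94 at 6 h against unstimulated cells, and the 24 h level differed by -3.30 relative to 6 h and by -2.41 relative to 1 h.

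Of the chemokines that attract monocytes and effector T cells, Ccl4 rose 10.2-fold at 1 h (3.36, SE 0.27, adjusted p = 7.74e-06), the 20th highest change of all genes, and Ccl3 6.09-fold (2.61, SE 0.22, adjusted p = 9.68e-06). Ccl4 had log2 ratios of 7.76, 8.76 and 7.80 at 1 h, against 4.49, 5.19 and 4.57 in unstimulated cells, with no overlap. Ccl3 had 4.43, 5.05 and 4.39 at 1 h, against 1.65, 2.36 and 2.04 in unstimulated cells, again with no overlap. At 6 h the changes were 3.23 for Ccl4 and 2.62 for Ccl3, and neither gene differed between 6 h and 1 h by a passing test (-0.13 with a 95% interval of -0.72 to 0.46, and 0.01 with -0.45 to 0.48).

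At 24 h Ccl4 was at 6.44, 6.64 and 6.69 and Ccl3 at 3.72, 3.96 and 4.11, still above every unstimulated array. Ccl4 was 3.58-fold higher than in unstimulated cells (1.84, adjusted p = 0.00021; 1.48 and adjusted p = 0.063 in the slide-block fit) and Ccl3 3.77-fold (1.91, adjusted p = 3.25e-05). Against 6 h, Ccl4 was lower at 24 h (-1.39, adjusted p = 0.00417) and so was Ccl3 (-0.71, adjusted p = 0.0389; in the slide-block fit -0.76, adjusted p = 0.118). The Ccl3 call was also lost without any 1 of the 24 h arrays, without the 6 h array of donor A or B or the unstimulated array of donor C, with every local background as deposited, from processed signals, from Cy5 alone and with no filter on dim probes. The Cy3 signal of the Ccl4 probe, which comes from the constant reference, moved against the sample signal: it was 519 to 600.5 units in unstimulated cells, 301 to 407.5 at 1 h, 250 to 285 at 6 h and 385 to 640.5 at 24 h. From the Cy5 channel alone the Ccl4 changes against unstimulated cells were 2.65 at 1 h and 2.38 at 6 h, and both passed. With every local background as deposited the 6 h change was 2.63, which passed. Also from Cy5 alone, the change of Ccl4 at 24 h against 6 h was -0.85 (adjusted p = 0.0551).

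Ccl5 had its largest changes at the late times. Its log2 ratio was 2.48, 2.02 and 2.32 in unstimulated cells, 3.45, 3.95 and 2.94 at 1 h, 6.80, 6.95 and 6.31 at 6 h and 6.88, 8.12 and 7.56 at 24 h. It was 21.3-fold higher than in unstimulated cells at 6 h (4.42, SE 0.31, adjusted p = 4.86e-07) and 38-fold at 24 h (5.25, adjusted p = 2.28e-07), which ranked 26th and 8th among the 11095 genes. With slide as a block the changes were 4.91 and 5.61. The change at 1 h was 1.17 (adjusted p = 0.0376; 0.0656 in the slide-block fit, and 0.144 without the 1 h array of donor B). That call was also lost without any 1 of the 3 unstimulated arrays, without the 1 h array of donor A, the 6 h array of donor A or the 24 h array of donor C, with every local background as deposited, from the scanner's processed signals and with no filter on dim probes.

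Against 1 h, 2 members were higher at 6 h and 0 lower, where 28.2% of genes were called and 12% called higher. Ccl5 was 9.47-fold higher at 6 h than at 1 h (3.24, SE 0.31, adjusted p = 8.75e-06), and Ccl9 was 1.49-fold higher (0.57, SE 0.16, adjusted p = 0.0148). The Ccl9 call was lost without the 1 h array of donor A or C or the 6 h array of donor A or B (0.48 to 0.56, adjusted p = 0.0517 to 0.0648) and with every local background as deposited (0.27, adjusted p = 0.484). Ccl5 was higher again at 24 h than at 6 h by 0.83, which did not pass (adjusted p = 0.0804); without the 24 h array of donor A it was 1.15 (adjusted p = 0.0207). At 24 h against 1 h, 7 members were called where 28.8% of genes were called (13% higher and 15.8% lower): Ccl5 (4.07) and Ccl9 (0.46, adjusted p = 0.0413) were higher, and Ccl2 (-2.52), Ccl7 (-2.36), Ccl4 (-1.52), Ccl12 (-1.27) and Ccl3 (-0.69) were lower. The calls of Ccl9 and Ccl3 depended on the setting. That of Ccl9 was lost without any 1 of the 24 h arrays (0.37 to 0.53, adjusted p = 0.0515 to 0.135), without the 1 h array of donor A or C, the 6 h array of donor A or the unstimulated array of donor B, with every local background as deposited, by median centring and in a fit of the 2 groups alone. That of Ccl3 was lost without the 1 h array of donor B (-0.48, adjusted p = 0.102), without the 24 h array of donor A or B, with every local background as deposited, from processed signals, by median centring, from Cy5 alone, without slide 2 and with slide as a block. The slide-block fit also lost Ccl12 (-0.84, adjusted p = 0.105) and called Ccl17 (0.51, adjusted p = 0.0404) and Ccl22 (1.53, adjusted p = 0.00282), so that its count was again 7 with 2 members exchanged. Ccl17 was also called with no background correction and from processed signals. For 6 h against 1 h the slide-block fit added Ccl22 (1.38, adjusted p = 0.00279), which made 3 members in place of 2. That fit called 2728 of the 11095 genes for 6 h against 1 h and 2530 for 24 h against 1 h, in either direction. The count of 3 lies near the share of all genes, and nothing is read from it.

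Differences taken within slides, and added up across slides where no slide held both groups, rest on few arrays and have no test. For 24 h against unstimulated cells they were 0.89 for Ccl4 and 1.33 for Ccl3, where all arrays gave 1.84 and 1.91, and -0.62 for Ccl7, which turned its direction. For Ccl5 they were 5.11 at 6 h against unstimulated cells and 3.94 at 6 h against 1 h. For 24 h against 1 h they were -2.12 for Ccl4 and -3.20 for Ccl7. The sign also turned for Ccl4 (0.38) and Ccl6 (0.27) at 6 h against 1 h, and for Ccl6 (0.18) and Ccl22 (-0.26) at 24 h against 6 h.

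Ccl9 and Ccl6 are neighbours on chromosome 11, between Ccl5 and Ccl3, and moved unequally. Ccl9 rose 2.45-fold at 1 h (1.30, SE 0.16, adjusted p = 0.000221), 3.66-fold at 6 h (1.87, adjusted p = 2.19e-06) and 3.38-fold at 24 h (1.76, adjusted p = 5.54e-06). Its log2 ratio was 4.27, 4.39 and 4.65 in unstimulated cells, 5.66, 6.00 and 5.54 at 1 h, 6.33, 6.47 and 6.13 at 6 h and 6.15, 6.38 and 6.06 at 24 h, with every LPS array above every unstimulated one. Ccl6 was at 8.08, 8.08 and 8.25 in unstimulated cells, 8.52, 8.998 and 8.33 at 1 h, 8.48, 8.71 and 8.003 at 6 h and 8.29, 8.76 and 8.07 at 24 h. Its changes of 0.48, 0.26 and 0.24 (SE 0.22) did not pass at any time. The 95% intervals were 0.00 to 0.96, -0.22 to 0.74 and -0.24 to 0.71. Every 1 h array of Ccl6 lay above every unstimulated one. The reference signal of its probe was dim, at 102 to 127.5 units in unstimulated cells and 136.5 to 211 at 1 h. Its sample signal was 61453 to 99614 units in unstimulated cells and 110575.5 to 148180 at 1 h. The Ccl6 changes are therefore uncertain. The pair was compared after its changes were seen, so the difference is a description with no test: the Ccl9 change exceeded the Ccl6 change by 0.82, 1.61 and 1.52 at the 3 times.

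The RefSeq promoter table (GRCm38.p6, 250 bases before to 50 after the gene start) matched 6 of the 10 members, and Ccl2, Ccl4, Ccl5 and Ccl7 were not matched. The Ccl9 and Ccl6 sequences are shown because these neighbours changed unequally. Capitals mark the motifs found. Ccl9 is at chr11:83578587-83578886 on the minus strand and Ccl6 at chr11:83593038-83593337 on the minus strand.
Ccl9 promoter: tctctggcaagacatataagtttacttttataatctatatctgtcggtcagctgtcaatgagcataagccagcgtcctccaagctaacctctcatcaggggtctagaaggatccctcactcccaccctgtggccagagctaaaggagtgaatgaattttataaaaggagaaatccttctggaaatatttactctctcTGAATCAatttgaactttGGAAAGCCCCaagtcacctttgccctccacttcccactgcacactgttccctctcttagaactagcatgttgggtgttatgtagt
Ccl6 promoter: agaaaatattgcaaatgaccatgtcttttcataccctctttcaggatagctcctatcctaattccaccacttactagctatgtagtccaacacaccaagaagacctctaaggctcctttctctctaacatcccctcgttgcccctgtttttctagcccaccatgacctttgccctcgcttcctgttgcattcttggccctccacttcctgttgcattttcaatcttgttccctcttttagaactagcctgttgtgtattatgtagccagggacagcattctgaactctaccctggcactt

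Both strands were searched. Ccl9 held the AP-1 motif TGANTCA at -53 to -47 and a 10-base kappaB consensus at -35 to -26, counted from the gene start. The kappaB match reads on the strand opposite to the one printed. Ccl6 held neither motif, and nor did Ccl3 and Ccl12, which were also called higher after LPS, or Ccl17 and Ccl22. Whether these motifs go with the changes was not tested. Over 32807 promoters of this length, 7.82% held the AP-1 motif and 4.51% the kappaB consensus. The kappaB motif was first searched in a looser form, GGG and CC with 5 bases between, which 50.8% of promoters hold and which also matched Ccl22 at -162 to -153 and at -131 to -122; the stricter consensus was chosen after that result was seen. The interferon response motif, GAAA and GAAA with 2 bases between (3.43% of promoters), was in none of the 6. A match is a run of letters and not a measured site.

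A likeness of the Ccl6 and Ccl9 promoters was looked for because the genes are neighbours. Aligned end to end, they were identical at 182 of 362 columns (50.3%), which ranked 8 among the 15 pairs of members; the other 14 pairs were at 47.6 to 55%. Over the last 100 bases the pair was at 48.2%, and the other pairs at 44.6 to 56.2%. End-to-end alignment therefore did not set the pair apart. A second attempt by best local alignment was chosen after that negative result and after the sequences had been looked at. It gave a stretch of 74 columns with 59 identical (79.7%), from -59 to 15 in Ccl6 and from -18 to 49 in Ccl9, with a score of 37 where the other pairs scored 9 to 13 (1 for a match, -1 for a mismatch and -2 for a gapped base). This stretch lies at different distances from the 2 gene starts and does not cover either motif of Ccl9. As the second of 2 methods tried, it is given as a description only.

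The Ccr4 ligands Ccl17 and Ccl22 lie on chromosome 8 on either side of Cx3cl1. Ccl17 was at 7.26, 7.32 and 7.13 in unstimulated cells, 7.38, 7.22 and 7.45 at 1 h, 7.65, 7.44 and 7.36 at 6 h and 7.66, 7.85 and 7.55 at 24 h. Its sample signal was 199698 to 313618 intensity units over the 12 arrays. The 24 h arrays lay above all unstimulated ones, and the change of 0.45 (1.37-fold, SE 0.12, adjusted p = 0.0115) passed. The call was lost with slide as a block (0.65, adjusted p = 0.0773), by median centring (0.17, adjusted p = 0.658) or from Cy5 alone (0.24, adjusted p = 0.109), as well as with every local background as deposited and without the 24 h array of donor B (0.37, adjusted p = 0.0513). The changes at 1 h (0.11) and 6 h (0.25) did not pass.

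Ccl22 stood apart on 2 arrays. Its log2 ratio was 0.15, 0.17 and 0.44 in unstimulated cells, 0.41, 2.22 and 0.42 at 1 h, 1.29, 1.47 and 1.31 at 6 h and 1.01, 4.31 and 1.08 at 24 h. The 2 high values are those of donor B at 1 h and at 24 h, the only 2 arrays on slide 2; the 6 h array of donor B, on slide 3, did not stand apart. Whether donor or slide goes with them cannot be told apart. The probe is dim: the sample signal was 8 to 29.5 units in unstimulated cells, where it was well above background on 2 of 3 arrays, and the reference signal was -4 to 10.5 units over all arrays.

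With all arrays the Ccl22 changes were 0.76 at 1 h, 1.10 at 6 h and 1.88 at 24 h (SE 0.71), and none passed (adjusted p = 0.546, 0.251 and 0.0516). Without the 2 arrays of slide 2, left out after Ccl22 had been seen, they were 0.16, 1.10 and 0.79, given with no test. The 6 h change passed with slide as a block (1.54, adjusted p = 0.0197), from processed signals (3.18, adjusted p = 0.0417), in a fit of the 2 groups alone (adjusted p = 0.000111) and without the 24 h array of donor B (adjusted p = 0.0307). The 24 h change passed with slide as a block (1.69, adjusted p = 0.0172), with donor as a block (adjusted p = 0.0168), with no background correction (2.15, adjusted p = 0.0387), from Cy5 alone (1.91, adjusted p = 0.0362) and without the 24 h array of donor A or C or the 1 h array of donor B (1.88 to 2.44, adjusted p = 0.0207 to 0.0332). As the probe passed the filter only through 6 h and 24 h, nothing is read from these passes.

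The promoters of Ccl17 and Ccl22 are shown beside these values, with the 1 match to the stricter motifs, the STAT6 form of TTC and GAA with 4 bases between, in capitals. It lies in Ccl17 at -154 to -145 and is held by 6.94% of promoters. The 2 looser kappaB matches of Ccl22 are left in lower case. Ccl17 is at chr8:94810203-94810502 on the plus strand and Ccl22 at chr8:94745434-94745733 on the plus strand.
Ccl17 promoter: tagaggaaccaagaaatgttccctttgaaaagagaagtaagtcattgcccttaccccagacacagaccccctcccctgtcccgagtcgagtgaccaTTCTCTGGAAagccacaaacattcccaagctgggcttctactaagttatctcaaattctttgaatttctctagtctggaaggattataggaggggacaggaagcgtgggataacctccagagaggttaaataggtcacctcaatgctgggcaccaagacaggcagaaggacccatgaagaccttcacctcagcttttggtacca
Ccl22 promoter: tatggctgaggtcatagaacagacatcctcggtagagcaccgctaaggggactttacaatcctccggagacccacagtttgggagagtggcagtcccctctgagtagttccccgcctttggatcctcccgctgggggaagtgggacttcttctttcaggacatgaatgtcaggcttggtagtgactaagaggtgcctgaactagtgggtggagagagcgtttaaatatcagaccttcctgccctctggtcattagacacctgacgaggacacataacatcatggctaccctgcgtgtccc

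**Figure D3:**
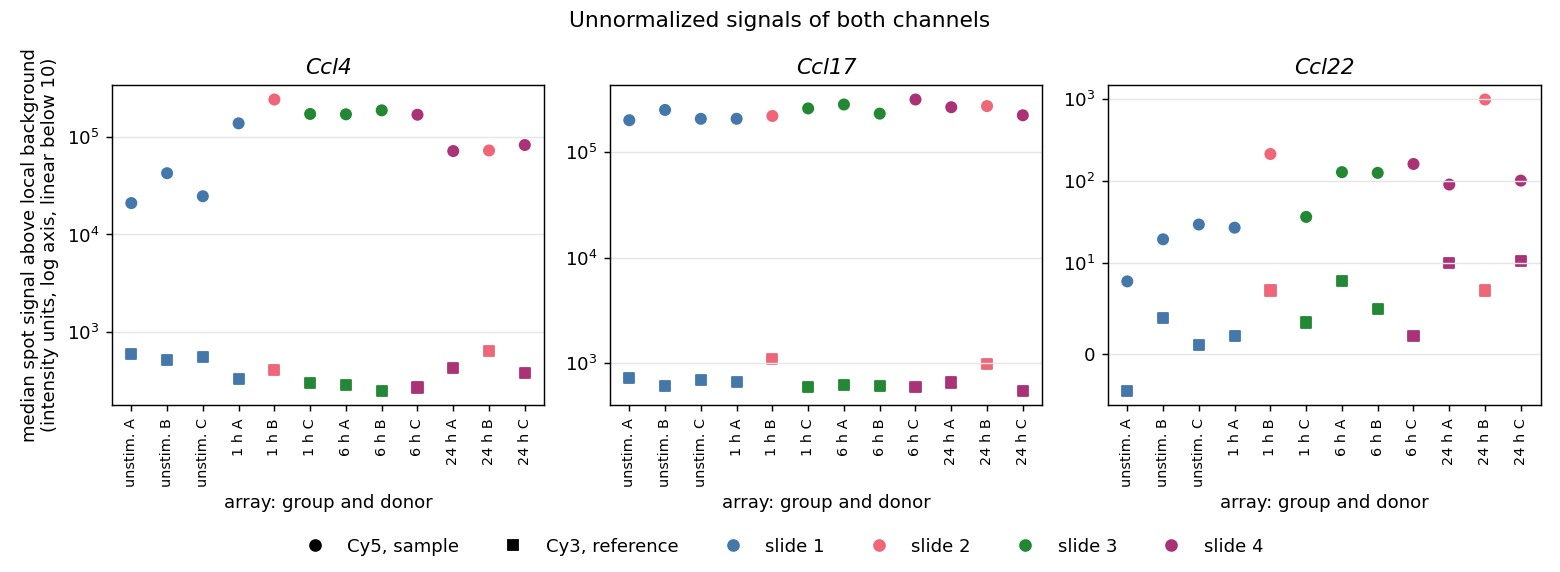
Median spot signal above local background (vertical axis, intensity units, log scale and linear below 10) of Ccl4, Ccl17 and Ccl22 on each array (horizontal axis), circles for the sample (Cy5) and squares for the reference (Cy3), coloured by slide. Ccl17 stayed between 199698 and 313618 units in the sample channel, and Ccl22 reached 981 units on the 24 h array of donor B, against 8 to 29.5 units in unstimulated cells.

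By the root mean square difference of mean-centred log2 ratios over the 12 arrays, the genes most like Ccl2 were Ccl7 (0.46) and Dusp2 (0.61). Those most like Ccl7 were Edn1, which encodes endothelin, (0.45) and Ccl2 (0.46). Edn1 (0.35) and Ccl3 (0.38) were most like Ccl4, and Arl5b (0.33) and Cflar (0.34) most like Ccl3. Hdc, which encodes the enzyme that makes histamine, (0.33) and Hamp (0.49) were most like Ccl5. For Ccl9 they were Skil (0.19) and Tnip1 (0.24), for Ccl12 Mfsd6l (0.42) and Tlr7 (0.45), for Ccl22 Foxl2 (0.42) and Sit1 (0.53), for Ccl6 Gper1 (0.11) and Abhd17c (0.11), and for Ccl17 Aff4 (0.09) and Fgfr4 (0.11). Small values for Ccl6 and Ccl17 go with genes that changed little.

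The counts in the gene lists that follow stand beside 7.46, 39.6 and 39.4% of all genes called at 1, 6 and 24 h, with 4.06, 16.1 and 18% called higher, and several of them lie near these shares. The counts include genes that were not well above background on every array. Such genes may have passed the filter only through groups where they are higher. Of 11 other CC chemokines, 6 could be tested, and Ccl8 alone was called against unstimulated cells: its changes were 0.07 at 1 h, 1.00 at 6 h (adjusted p = 0.00263) and 0.78 at 24 h (adjusted p = 0.0115). Ccl8 was well above background on only 7 arrays, so the filter may have kept it through the later groups, where it is higher. Nothing is read from the Ccl8 passes. Ccl1, Ccl11 and Ccl20 were above background on no array. Of 15 receptors, 8 were tested, with 2, 3 and 3 higher and 0, 1 and 2 lower at 1, 6 and 24 h. Ccrl2, a chemerin-binding receptor, changed by 5.33, 3.51 and 3.51 at these times. Ccr4, the receptor of Ccl17 and Ccl22, rose by 1.56 at 24 h (adjusted p = 0.000287), while Ccr2, the receptor of Ccl2, Ccl7 and Ccl12, fell by 1.95 (adjusted p = 0.00208) and Ccr6 fell by 1.39 (adjusted p = 0.000396). Ccr4 too was well above background on only 7 arrays, so nothing is read from its pass at 24 h.

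Of 16 transcription factors of chemokine genes, 15 were tested, with 5, 11 and 12 higher and 0, 2 and 1 lower at 1, 6 and 24 h. Nfkbiz, which encodes an atypical IkB protein that regulates NF-kB target genes, changed by 6.58, 4.11 and 2.88, and the interferon pathway factor Irf7 by 0.18, 3.44 and 4.01. Of 8 messenger decay regulators, 1, 2 and 1 were higher and 0, 1 and 2 lower, with Zfp36, which promotes decay of AU-rich messengers, at 2.50, 0.54 and 1.05. Of 8 proteases that cut chemokines 7 were tested, with 2, 1 and 2 higher and 1, 3 and 3 lower; Dpp4 fell by 1.23 at 24 h and Mmp14 rose by 2.65. Of 14 CXC chemokines 11 were tested, with 5, 5 and 5 higher and 0, 0 and 1 lower, and Cxcl10 at 5.31, 7.55 and 3.67. Cxcl10 was well above background on only 10 arrays, so the filter may have kept it through the LPS groups, where it is higher. Nothing is read from its changes.

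**Figure D4:**
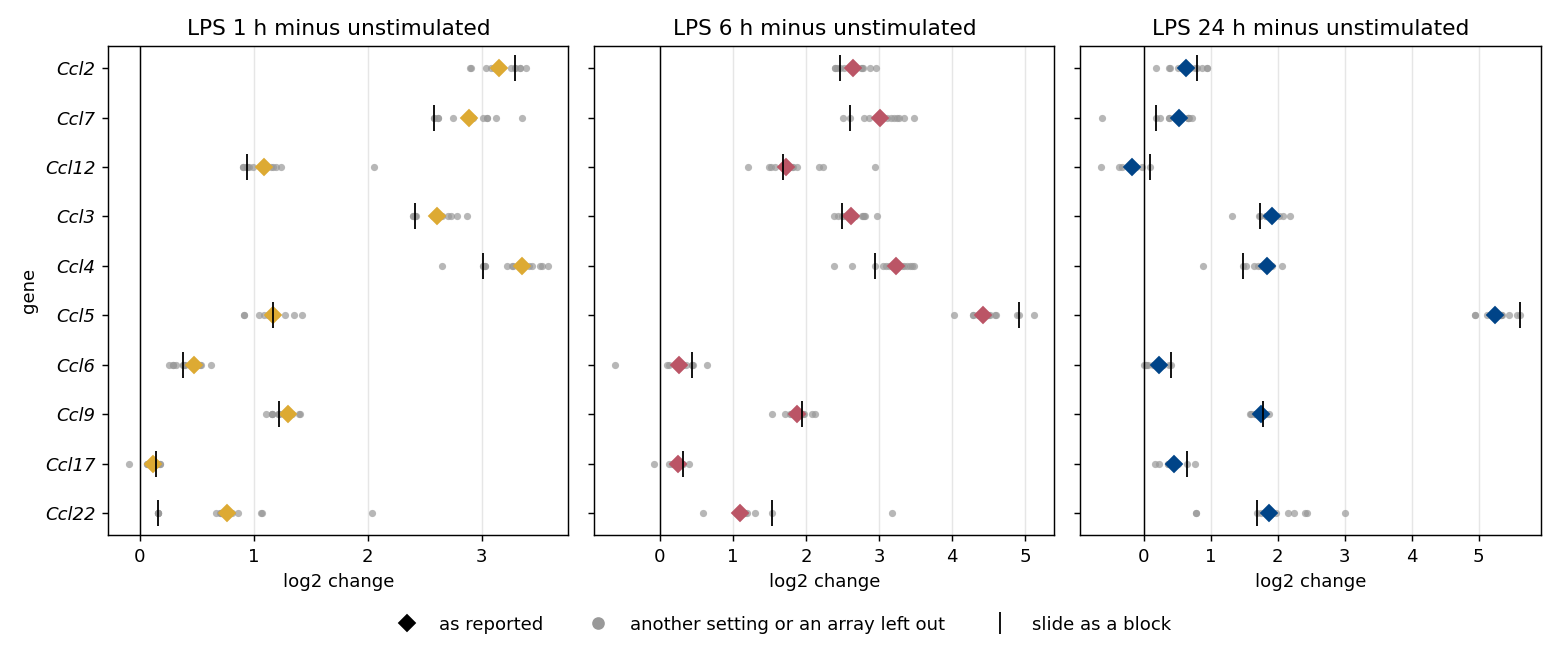
Log2 change against unstimulated cells (horizontal axis) of each CC chemokine (vertical axis) at 1, 6 and 24 h as reported (diamonds), under other settings or with an array left out (grey points) and with slide as a block (bars). The Ccl5 changes at 6 h and 24 h lay far from 0 in all settings drawn, and those of Ccl22 spread most.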

How the data were processed

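Per the labels, 750 ng of Cy5-labelled cRNA was hybridised against the Cy3-labelled reference. The deposited files of the scanner (per the file headers, Agilent Feature Extraction 10.7.3.1, protocol GE2_107_Sep09) hold median intensities of spot and local background for 45018 spots, the scanner software's processed intensity and a log10 ratio, which was not used. The authors' deposited value table holds log2 ratios made with limma, per the submitters' processing notes; its steps were not stated there. It correlated at r of at least 0.999 with the values computed here.

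In R 4.3.3 with limma 3.58.1, background was corrected by normexp (offset 50) and ratios normalised by loess (span 0.3, control spots at weight 0). Local backgrounds marked as outliers were replaced by the array median, a choice an earlier analysis made after seeing the files; spots marked as outliers (137 to 234 per array) were left out. Probes well above background in Cy5 on all 3 arrays of a group were kept, with the brightest per gene. One linear model with 8 residual degrees of freedom was fitted to the 12 arrays, with two-sided tests and Benjamini-Hochberg adjustment over 11095 genes. Named genes are all members, up to 4 called genes per list with the largest change, and the 2 nearest genes per member; Clec9a, Cd209a, Elane, Retnlg, Ccl1, Ccl11 and Ccl20 were named after their values were seen. The members and lists were chosen with earlier results of these data known.

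Slides were read from the headers. Sample titles carry a letter A, B or C in every group, called donor here, without stating that a letter is 1 animal. Same-letter arrays had deviations with r of -0.21 to 0.58 (median 0.11, 18 pairs). A fit blocked on this letter was run as an alternative and is given where a call changed with it. A p-value sets a difference between group means against the spread of these samples within groups. Without a slide block, that spread includes differences between slides.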

Additional observations from a re-analysis of the deposited data

How the results depend on the processing

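The alternatives were other background corrections, normalizations, filters and probe rules, the authors' values, slide or donor blocks, 2-group fits, a fold threshold and leaving out arrays; leaving out both slide 2 arrays was added after seeing the data. At 1 h, 4 members were called with slide as a block instead of 7. Between 6 h and 1 h, 1 instead of 2 was called with every local background as deposited and with a 2-fold minimum, and 1 to 3 when single arrays were left out; Ccl9 was the gene lost, and Ccl12 the one added without the 6 h array of donor C. Between 24 h and 6 h, 3 instead of 5 were called with every local background as deposited and from Cy5 alone, both times without Ccl3 and Ccl4. The cause was not tested. With donor as a replicate block the counts were 7, 7 and 6 against unstimulated cells, with Ccl22 added at 24 h (adjusted p = 0.0168). They were 2, 5 and 7 in the other comparisons. Except for the slide block, the shares of all genes called under these alternatives are not given, so nothing is read from their counts.

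Changes of sign occurred for values that passed in neither form. With every local background as deposited, against unstimulated cells at 6 h Ccl6 was -0.61 and Ccl17 -0.077; 6 h minus 1 h gave Ccl3 -0.19, Ccl7 -0.070, Ccl17 -0.15 and Ccl22 -0.12; and 24 h minus 6 h gave Ccl6 0.84 and Ccl9 0.22. Median centring gave Ccl17 -0.094 at 1 h, Ccl6 -3.3e-05 at 24 h, Ccl4 0.20 and Ccl6 0.12 for 6 h minus 1 h, and Ccl17 -0.23 for 24 h minus 6 h. Slide as a block gave Ccl12 0.098 at 24 h, Ccl6 0.063 for 6 h minus 1 h and Ccl6 0.034 for 24 h minus 1 h. Cy5 alone gave, for 6 h minus 1 h, Ccl3 -0.085, Ccl7 -0.012 and Ccl17 -0.011. Processed signals gave Ccl22 -0.17 for 24 h minus 6 h. Without slide 2, Ccl4 was 0.20 for 6 h minus 1 h and Ccl22 -0.31 for 24 h minus 6 h. Leaving out single arrays gave -0.10 to 0.23 for Ccl3, -0.30 to 0.20 for Ccl4 and -0.38 to 0.40 for Ccl7 in 6 h minus 1 h, and -0.23 to 0.13 for Ccl6 and -0.31 to 1.34 for Ccl22 in 24 h minus 6 h.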
